A study of Homo sapiens with 12 samples.

Results

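The genes described here encode the heat shock proteins and molecular chaperones of the HSP90, HSP70, HSP110, small heat shock and DNAJ families, together with the mitochondrial chaperonin. They were taken by symbol from the count tables, as the rows that begin with HSPA, HSPB, HSP90A, HSP90B, DNAJA, DNAJB or DNAJC and the rows HSPH1, HSPD1, HSPE1, CRYAA and CRYAB. Of 86 such rows, 10 were left out, namely 5 antisense genes and 5 pseudogenes, which left 76 of the 26499 genes listed. Reads were enough to test 65 of them.

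Chaperones bind proteins that are unfolded or not yet folded and keep them from aggregating. HSP70 proteins do this in cycles of ATP hydrolysis that DNAJ proteins (J proteins, also called HSP40) start and nucleotide exchange factors end, and HSP90 proteins take over clients such as kinases and steroid receptors at a later stage of folding. Small heat shock proteins hold unfolded chains without using ATP, and the chaperonin of the mitochondrial matrix encloses single chains in a barrel. The mutant BRAF kinase of melanoma cells is a known client of HSP90, and many genes of these families are switched on by the heat shock factor HSF1 or, for those of the endoplasmic reticulum (ER), by the unfolded protein response.

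The study sequenced poly(A)-enriched RNA from A375 and SKMel28, which are established human melanoma cell lines, and its stated question is the place of the IGF1 pathway when such cells resist inhibitors of BRAF and MEK. The 4 groups, of 3 libraries each, were resistant A375 cells kept in 1 µmol/L vemurafenib, sensitive A375 cells, resistant SKMel28 cells kept in 1 µmol/L vemurafenib, and sensitive SKMel28 cells. Vemurafenib inhibits the mutant BRAF kinase, and all groups were grown in DMEM with 10% fetal bovine serum. The labels name no drug for sensitive cells, so resistance and the presence of the drug cannot be told apart. They do not say whether a resistant line is 1 clone, nor whether each library stems from its own culture, so the p-values measure the spread between libraries, which may be technical.

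Each library held 28496518 to 37721363 reads assigned to genes, and libraries of the same group correlated at 0.991 to 0.995. Levels are given as CPM, counts scaled to 1e6 of the library size adjusted by trimmed means (TMM). Fold changes are on the log2 scale, resistant over sensitive within a line. Their standard error (SE) is an approximation, the absolute log2 fold change divided by the square root of the F value of the test. A gene was called at an adjusted p below 0.05 over the 15506 genes tested with edgeR. Of the 8 melanocyte lineage markers, 2 were called higher (DCT and TYRP1) and 3 lower (MITF, SOX10 and S100B) in resistant A375 cells, and 5 higher and 3 lower (SOX10, DCT and S100B) in resistant SKMel28 cells. They summed to 31.3 to 33.7 CPM in resistant and 373 to 383 CPM in sensitive A375 cells, where TYR had no read, and to 10924 to 11076 CPM in resistant and 7268 to 7708 CPM in sensitive SKMel28 cells. The 4 keratinocyte markers summed to 83.3 to 93.7 CPM in resistant and 120.4 to 124.2 CPM in sensitive A375 cells, and to 28.1 to 33.6 CPM in resistant and 66.4 to 70.4 CPM in sensitive SKMel28 cells. Fibroblast markers summed to 4.78 to 4.84 CPM in resistant and 9.15 to 10.01 CPM in sensitive A375 cells, and to 16.9 to 20.6 CPM in resistant and 24.8 to 25.9 CPM in sensitive SKMel28 cells. Endothelial markers reached at most 3.05 CPM and leukocyte markers at most 0.518 CPM in any library. The mitochondrial genome took 6.82% to 7.13% of assigned reads in resistant and 4.41% to 4.67% in sensitive SKMel28 libraries, and 2.11% to 2.27% in resistant and 1.85% to 1.99% in sensitive A375 libraries. Alignments that were not unique made up 2.09% to 2.44% in resistant and 4.004% to 4.468% in sensitive SKMel28 libraries, and 4.57% to 4.79% in resistant and 4.37% to 5.03% in sensitive A375 libraries. The part of these marker and library differences in the chaperone results was not tested.

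The windows around the starts of 6 abundant chaperone genes are shown because they hold matches to the elements through which stress is known to switch such genes on. Each runs from 250 bases before to 50 bases after the start in RefSeq (GRCh38.p14), on the strand of the gene. Where a gene has several starts, the window with the most matches is shown. HSP90AA1, HSP90AB1 and HSPD1 also have windows at other starts, and those held no match to either element. Capitals mark, in the first 4, the heat shock element searched here, which is the pair GAANNTTC with NNGAA after it or, on the other strand, TTCNN before it. In the last 2 they mark the ER stress element, CCAAT and CCACG with 9 free bases between them or, on the other strand, CGTGG and ATTGG with the same gap.
HSP90AA1 (chr14:102086995-102087294, minus strand): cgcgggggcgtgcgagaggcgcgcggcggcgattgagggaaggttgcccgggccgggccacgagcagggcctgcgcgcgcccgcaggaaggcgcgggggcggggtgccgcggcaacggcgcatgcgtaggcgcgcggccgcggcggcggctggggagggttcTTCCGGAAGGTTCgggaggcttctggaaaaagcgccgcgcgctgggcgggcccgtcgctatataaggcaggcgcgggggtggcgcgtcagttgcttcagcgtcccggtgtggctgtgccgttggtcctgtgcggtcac
HSP90AB1 (chr6:44247693-44247992, plus strand): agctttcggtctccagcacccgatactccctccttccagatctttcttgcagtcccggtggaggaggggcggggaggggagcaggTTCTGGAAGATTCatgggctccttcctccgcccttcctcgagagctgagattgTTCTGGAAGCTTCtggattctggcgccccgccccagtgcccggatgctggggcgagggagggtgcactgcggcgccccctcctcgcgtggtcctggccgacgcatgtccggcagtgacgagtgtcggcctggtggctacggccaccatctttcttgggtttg
HSPD1 (chr2:197499791-197500090, minus strand): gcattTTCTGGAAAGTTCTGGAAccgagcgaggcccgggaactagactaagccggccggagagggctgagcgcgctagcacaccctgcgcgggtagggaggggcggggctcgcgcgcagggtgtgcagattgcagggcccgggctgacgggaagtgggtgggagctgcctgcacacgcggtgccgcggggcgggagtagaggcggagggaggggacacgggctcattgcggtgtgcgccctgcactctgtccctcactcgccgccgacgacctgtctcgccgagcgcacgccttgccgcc
HSPA8 (chr11:123062087-123062386, minus strand): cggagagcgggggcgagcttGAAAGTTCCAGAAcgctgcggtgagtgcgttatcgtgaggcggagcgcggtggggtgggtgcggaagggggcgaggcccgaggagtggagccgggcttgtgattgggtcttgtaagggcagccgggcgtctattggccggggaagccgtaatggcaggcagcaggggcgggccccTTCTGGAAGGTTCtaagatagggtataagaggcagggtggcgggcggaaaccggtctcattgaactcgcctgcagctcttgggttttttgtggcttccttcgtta
HSPA5 (chr9:125241294-125241593, minus strand): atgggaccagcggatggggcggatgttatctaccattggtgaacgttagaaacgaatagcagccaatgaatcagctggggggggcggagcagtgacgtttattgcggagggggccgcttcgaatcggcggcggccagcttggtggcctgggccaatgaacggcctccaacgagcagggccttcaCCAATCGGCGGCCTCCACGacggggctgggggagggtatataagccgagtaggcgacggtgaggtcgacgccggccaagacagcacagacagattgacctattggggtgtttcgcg
HSP90B1 (chr12:103930160-103930459, plus strand): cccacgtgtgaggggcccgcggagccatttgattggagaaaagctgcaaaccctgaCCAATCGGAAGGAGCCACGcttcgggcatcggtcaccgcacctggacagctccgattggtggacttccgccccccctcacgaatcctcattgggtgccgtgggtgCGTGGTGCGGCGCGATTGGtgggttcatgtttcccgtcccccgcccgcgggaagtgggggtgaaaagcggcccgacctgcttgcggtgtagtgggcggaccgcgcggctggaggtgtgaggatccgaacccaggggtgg

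The 66 chaperone genes that matched had 86 windows, since some have several. The heat shock element was found in 7 of these windows (8.14%), those of DNAJA1, DNAJB6, HSP90AA1, HSP90AB1, HSPA6, HSPA8 and HSPD1, and in 172 of all 35116 windows of the same length (0.490%). HSP90AB1, HSPA8 and HSPD1 each held 2 matches, which overlap in HSPD1. The ER stress element was found in 2 of the 86 windows (2.33%), those of HSPA5 and HSP90B1, with 2 matches in HSP90B1, and in 27 of all windows (0.0769%). The shorter pair GAANNTTC, which lies within the heat shock element, stood in 18 of the 86 windows (20.9%), among them windows of HSPA1A, HSPA1B, HSPB1 and DNAJB1, and in 6.77% of all windows. Matches are descriptions of the letters and not sites of measured binding.

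Chaperone genes moved little in A375 and mostly upward in SKMel28. In resistant against sensitive A375 cells, 36 of the 65 tested were called, 13 higher and 23 lower, while 51.3% of all genes tested were called (25.0% higher, 26.3% lower). Only 4 chaperone genes were both called and changed at least 1.5-fold (6.15%), against 18.5% of all genes, and their median log2 fold change was -0.05, against 0.00 over all genes. The split of higher and lower calls in A375 depended on the scaling. With the size factors of DESeq2 it was 16 higher and 15 lower, with library size alone 16 and 15, and with DESeq2 itself 16 and 14, and it also turned to 15 and 13 without A375 resistant library 2 and to 16 and 13 without A375 resistant library 3.

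In resistant against sensitive SKMel28 cells, 49 of the 65 were called, 40 higher and 9 lower, while 70.0% of all genes were called (34.2% higher, 35.8% lower). The median log2 fold change of the chaperone genes was 0.30, against -0.01 over all genes tested. A called change of at least 1.5-fold was seen in 19, of which 15 were higher, a share of 29.2% against 35.1% of all genes. The same comparison is the one in which the mitochondrial share of reads was higher and the share of non-unique alignments lower in every resistant library, as given above.

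The change differed between the lines for 45 of the 65 genes, lower in A375 than in SKMel28 for 36 and higher for 9, while 63.8% of all genes were called in this test (31.4% higher, 32.4% lower). Of the 65 genes, 15 were called lower in resistant A375 and higher in resistant SKMel28 (23.1%, against 9.86% of all genes), among them all 3 HSP90 genes, HSPD1 and HSPH1. The opposite pattern was found for DNAJC22 and DNAJC24 (3.08% of the 65). Of all genes tested, 20.1% were called in opposite directions in the 2 lines, in either order. Among the 15, the A375 call was lost in 8 of 18 alternatives for DNAJC15, 7 for HSP90AB1, 4 for DNAJC17 and 2 for HSP90AA1. For CRYAB it was lost in 2 of 17. The A375 calls of HSP90B1, HSPD1, HSPH1, HSPB11, DNAJC11, DNAJC3 and DNAJB4 were kept in all. DNAJC7, DNAJC8 and HSPA14 were not followed through the alternatives. Genes called higher in both lines were DNAJA1, DNAJB5, DNAJC10, DNAJC12, DNAJC19, DNAJC30 and HSPA12A (10.8% of the 65). Genes called lower in both were DNAJC5, DNAJC6, HSPA1A, HSPA1B, HSPA2 and HSPA5 (9.23% of the 65). Of all genes tested, 18.5% were called in the same direction in both lines, either higher or lower. No call was made in either line for 10 genes.

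**Figure D1:**
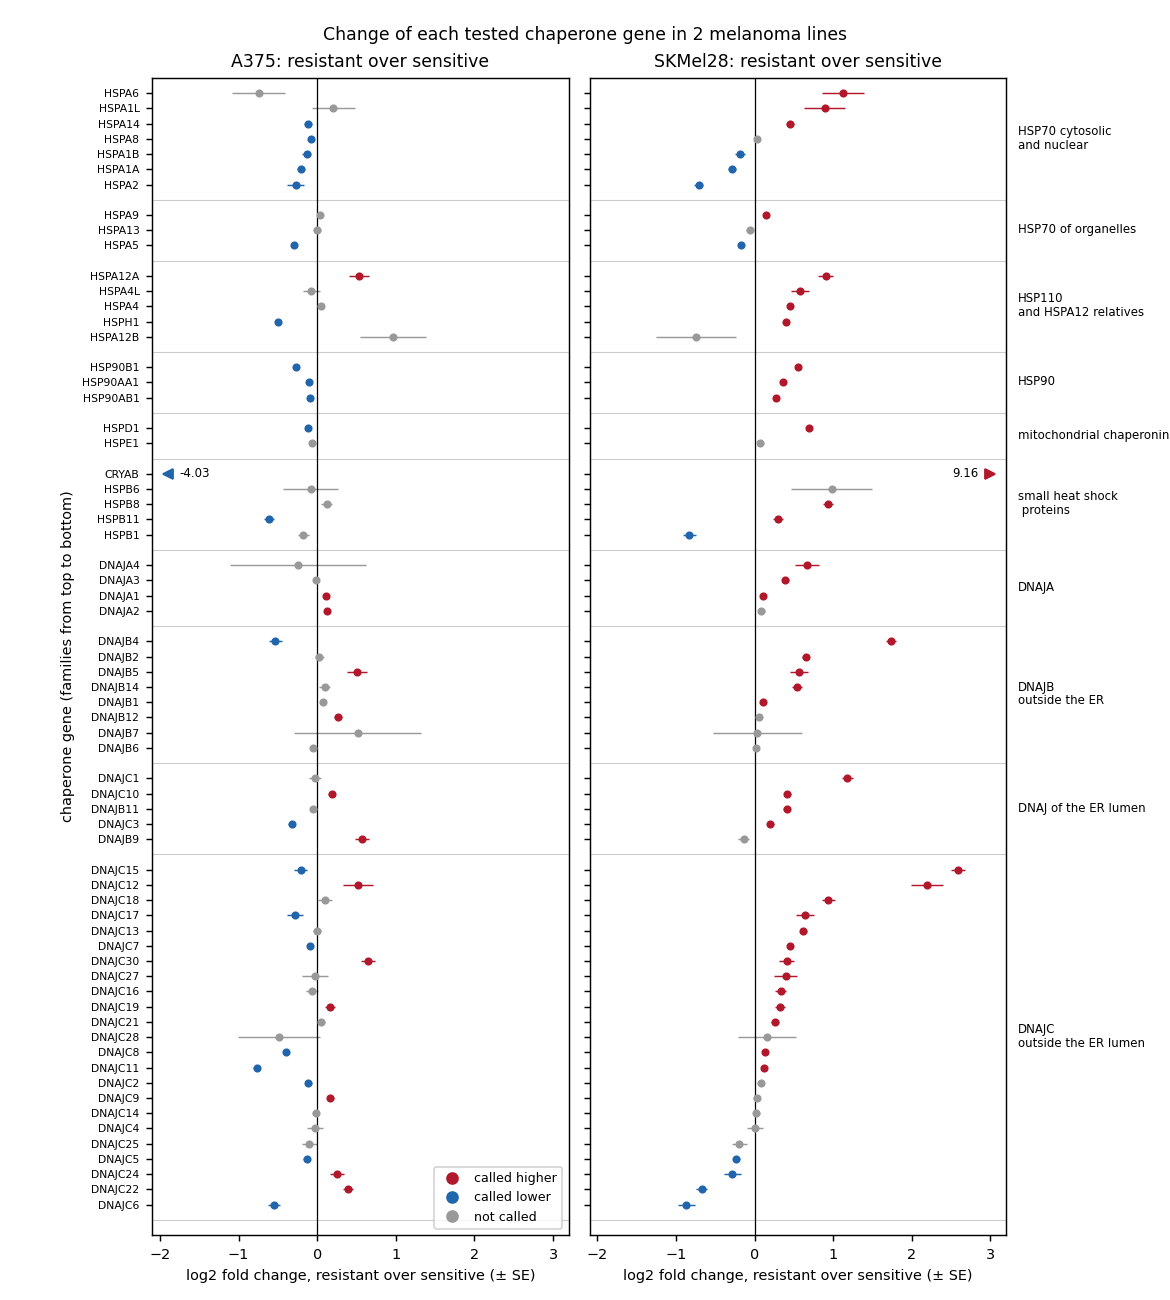
Fitted log2 fold change, resistant over sensitive, with its SE for the 65 tested chaperone genes (rows, by family) in A375 (left) and SKMel28 (right), red where called higher, blue where called lower and grey where not called. CRYAB lies outside the axis and is drawn as an arrow with its fitted value, which in A375 rests on 6 reads against none; the points lie close to 0 in A375 and mostly to its right in SKMel28.

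All chaperone genes together held 1.48% ± 0.0104 of assigned reads in resistant A375 cells and 1.56% ± 0.0181 in sensitive A375 cells (mean ± SD, n = 3 each). In SKMel28 their share was 1.70% ± 0.0317 in resistant and 1.42% ± 0.00197 in sensitive cells. HSP90 genes made up the greatest part, with 0.654% ± 0.0179 of reads in resistant SKMel28 cells and 0.520% ± 0.00147 in sensitive SKMel28 cells, and with 0.610% ± 0.00511 in resistant and 0.650% ± 0.0125 in sensitive A375 cells. Per length of transcript, the most abundant in every group were HSPA8, HSP90AA1 and HSP90AB1, each at 1610 to 2574 counts per kilobase scaled to 1e6. HSPD1 followed at 829 to 1838, then HSP90B1 and HSPE1 at 511 to 1106, taking the longest coding transcript of each gene. With the median length of the coding transcripts, HSP90B1 stood above HSPD1 in all 4 groups and above HSP90AA1 in resistant SKMel28 cells.

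**Figure D2:**
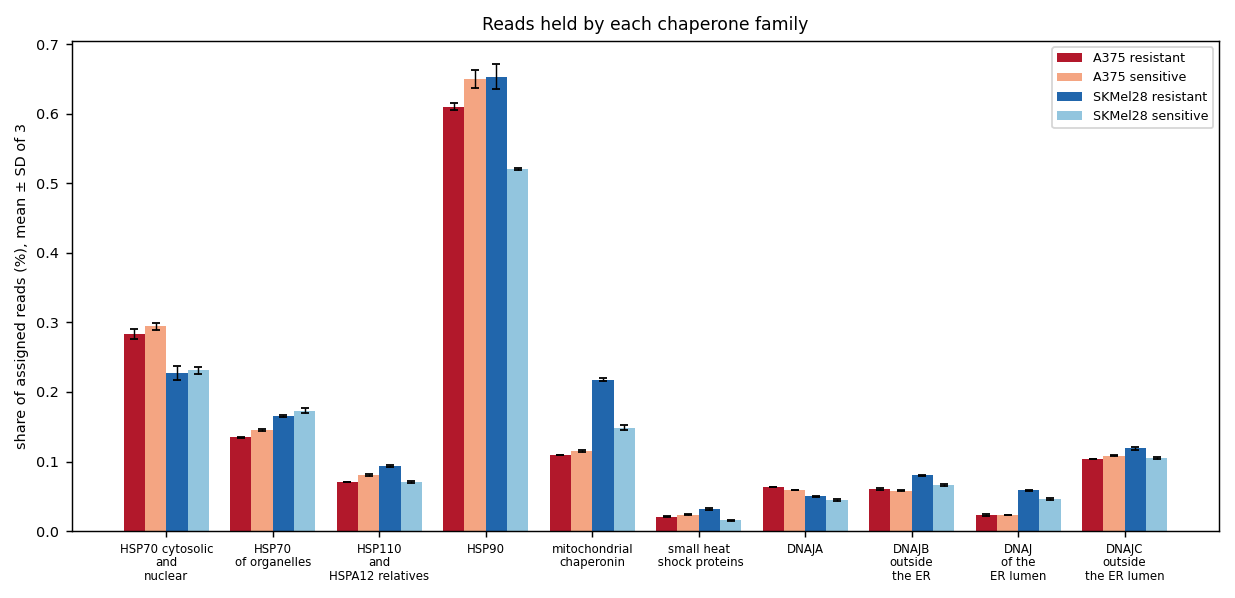
Share of assigned reads (%) held by each chaperone family in the 4 groups, as means of 3 libraries with SD, on a linear axis from 0. HSP90, the mitochondrial chaperonin, the small heat shock proteins and the ER-lumen DNAJ genes stood higher in resistant than in sensitive SKMel28 cells, with the HSP90 share at 0.654% and 0.520%. The small heat shock sum was 338 CPM in resistant and 161 CPM in sensitive SKMel28 cells, and CRYAB alone 173 and 0.299 CPM. HSPB8 was higher and HSPB1 lower there. Of the chaperonin genes, HSPD1 was called higher and HSPE1 was not called.

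The HSP90 genes encode the cytosolic HSP90AA1, the stress-inducible form, and HSP90AB1, the constitutive form, and HSP90B1 (GRP94), which works in the ER lumen. All were higher in resistant SKMel28 cells and, by less, lower in resistant A375 cells. Of all genes tested, 34.2% were called higher in SKMel28 and 26.3% lower in A375. HSP90AA1 was at 3464, 3265 and 3268 CPM in resistant SKMel28 libraries, against 2579.6, 2609 and 2601 CPM in sensitive ones, without overlap (log2 fold change 0.36 ± 0.03, adjusted p = 3.92e-14). HSP90AB1 was at 2343, 2324 and 2258 CPM in resistant and 1892, 1909.6 and 1950.5 CPM in sensitive SKMel28 libraries (log2 fold change 0.27 ± 0.03, adjusted p = 1.73e-10). The ER form changed most. HSP90B1 was at 1439, 1408 and 1373 CPM in resistant SKMel28, against 945, 984 and 951 CPM in sensitive SKMel28 libraries (log2 fold change 0.55 ± 0.03, adjusted p = 5.64e-20), a 1.47-fold rise.

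In A375, HSP90B1 was at 729.6, 709 and 734 CPM in resistant libraries and 872, 879.7 and 858 CPM in sensitive ones, again without overlap (log2 fold change -0.26 ± 0.03, adjusted p = 1.04e-09). HSP90AA1 was at 2723, 2723 and 2651 CPM in resistant and 2908, 2965 and 2843 CPM in sensitive A375 libraries (log2 fold change -0.11 ± 0.03, adjusted p = 0.00313). HSP90AB1 was at 2308, 2211 and 2228 CPM in resistant and 2413, 2446 and 2339.9 CPM in sensitive A375 libraries (log2 fold change -0.09 ± 0.03, adjusted p = 0.00879). Both cytosolic genes thus differed by little, and their calls in A375 were lost in some alternatives. That of HSP90AA1 was lost without A375 resistant library 2 (adjusted p = 0.0686) or 3 (adjusted p = 0.145), within a range of 0.000154 to 0.145 over its alternatives. That of HSP90AB1 was lost in 7 of 18 alternatives, with adjusted p from 0.000991 to 0.287 over all of them, including DESeq2 (0.067) and the fits without A375 resistant library 2 (0.287) or 3 (0.202) or A375 sensitive library 2 (0.0514). The difference between lines was called for all 3 genes, at -0.47 ± 0.04 (adjusted p = 7.71e-13) for HSP90AA1, -0.36 ± 0.04 (adjusted p = 7.61e-10) for HSP90AB1 and -0.82 ± 0.04 (adjusted p = 2.16e-20) for HSP90B1. That test called 63.8% of all genes tested (31.4% higher, 32.4% lower).

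**Figure D3:**
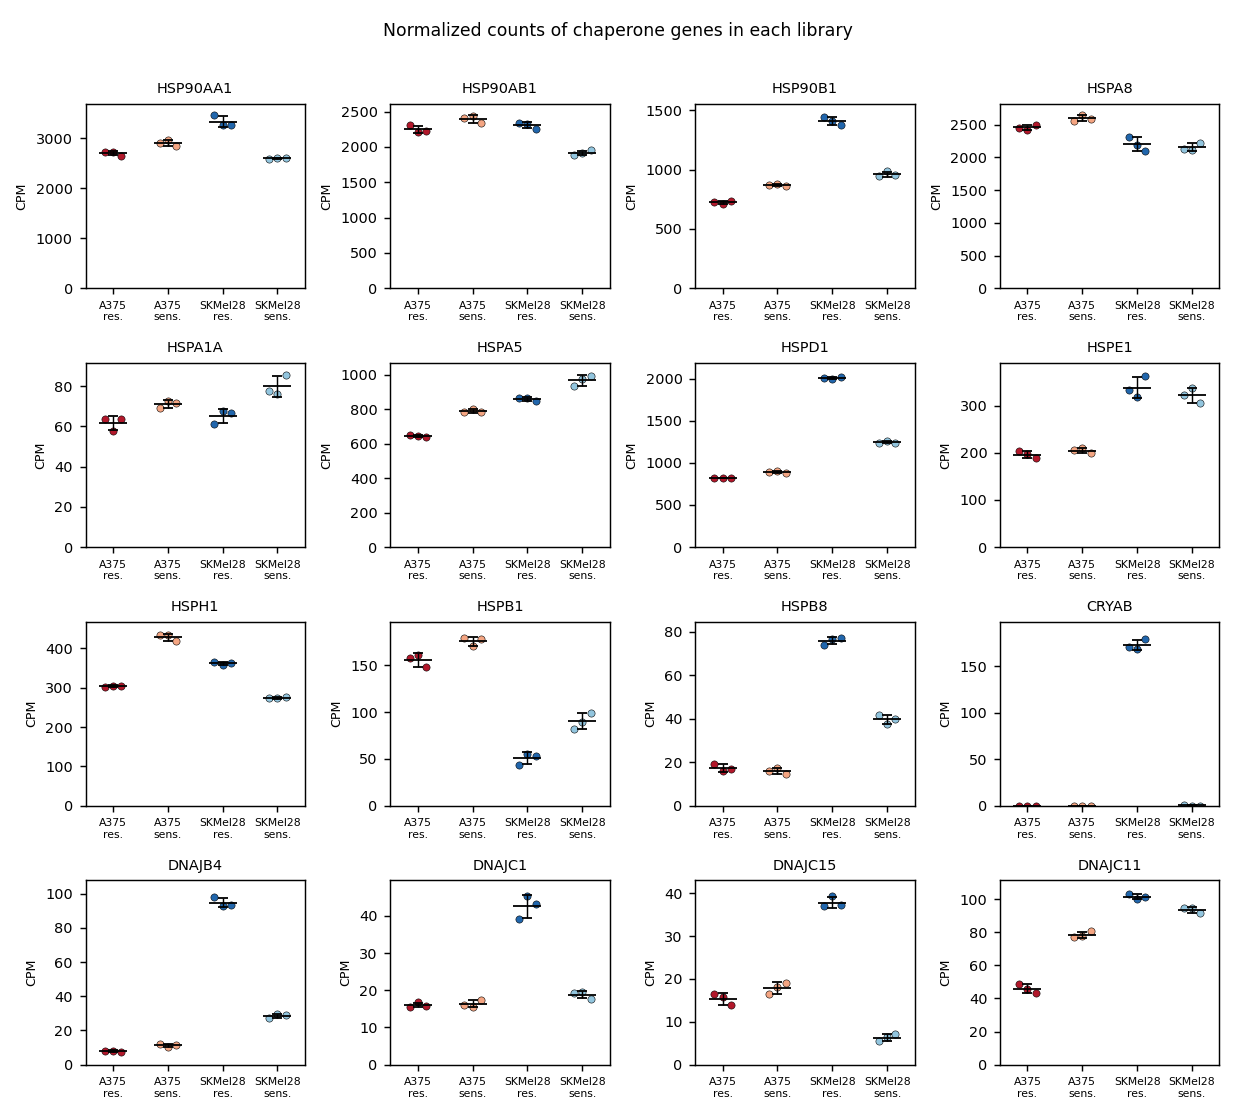
CPM of 16 chaperone genes in each of the 12 libraries (points), with the mean (bar) and SD of each group of 3, on linear axes from 0, with resistant left of sensitive cells for A375 and then SKMel28. HSPD1, HSP90B1, HSPB8, CRYAB, DNAJB4, DNAJC1 and DNAJC15 stand clearly higher in resistant SKMel28 libraries, HSPB1 lower, and HSPH1 and DNAJC11 lower in resistant A375 libraries.

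Of the 7 cytosolic and nuclear HSP70 genes, 3 were called higher and 3 lower in SKMel28 (85.7% called, against 70.0% of all genes tested). In A375, none were called higher and 5 lower (71.4%, against 51.3%), and several of these calls were weak, as given below. HSPA8, the constitutive HSC70, was at 2315, 2187 and 2101 CPM in resistant and 2133, 2109 and 2219 CPM in sensitive SKMel28 libraries (log2 fold change 0.03 ± 0.03, adjusted p = 0.393), which overlapped. In A375 it was at 2454, 2416 and 2494 CPM in resistant and 2552, 2649 and 2587 CPM in sensitive libraries (log2 fold change -0.08 ± 0.03, adjusted p = 0.0346). That call was lost in 9 of 18 alternatives (adjusted p from 0.00407 to 0.47), among them DESeq2 (0.269) and the fits without A375 resistant library 1 (0.268), 2 (0.47) or 3 (0.184) or A375 sensitive library 2 (0.134) or 3 (0.0638).

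HSPA1A and HSPA1B encode the stress-inducible HSP70 and are near-identical neighbours on chromosome 6, so reads may be split between them or lost, and their single values are uncertain. Both were called lower in both lines. HSPA1A was at 61.4, 67.7 and 66.6 CPM in resistant and 77.5, 76.1 and 85.7 CPM in sensitive SKMel28 libraries (log2 fold change -0.29 ± 0.05, adjusted p = 2.43e-06). In A375 it was at 63.6, 57.8 and 63.7 CPM in resistant and 69.1, 72.8 and 71.5 CPM in sensitive libraries (log2 fold change -0.20 ± 0.05, adjusted p = 0.000762), and the call was lost without A375 resistant library 2 (adjusted p = 0.0587, from 7.19e-05 to 0.0587 over its alternatives). The sum of both genes was 103.0 ± 5.10 CPM in resistant and 122.8 ± 7.57 CPM in sensitive SKMel28 cells, and 113.6 ± 5.03 CPM in resistant and 127.9 ± 1.55 CPM in sensitive A375 cells (mean ± SD, n = 3 each). The HSPA1B call was weak in A375 (log2 fold change -0.13 ± 0.06, adjusted p = 0.0438) and was lost in 11 of 18 alternatives, with adjusted p from 0.014 to 0.366. Among them were the fits without any one A375 library, from 0.0754 without A375 sensitive library 2 to 0.366 without A375 resistant library 2, and the fit without SKMel28 resistant library 2 (0.0543). In SKMel28 it had log2 fold change -0.19 ± 0.06, adjusted p = 0.00470.

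HSPA2, an HSP70 best known from spermatogenesis, was at 61.7, 65.8 and 64.1 CPM in resistant and 102, 105 and 107 CPM in sensitive SKMel28 libraries, without overlap (log2 fold change -0.71 ± 0.05, adjusted p = 1.19e-15). In A375 it stood at only 3.49, 4.22 and 4.03 CPM in resistant and 4.06, 4.79 and 5.45 CPM in sensitive libraries, which overlapped (log2 fold change -0.27 ± 0.11, adjusted p = 0.0357). That call was lost in 9 of 18 alternatives (adjusted p from 0.00512 to 0.277), among them the fits without A375 resistant library 1 (0.277) or 3 (0.0794) or A375 sensitive library 2 (0.0768) or 3 (0.241). HSPA6, which is strongly induced by stress, had at most 3.09 CPM in any library and was called higher in SKMel28 (log2 fold change 1.12 ± 0.27, adjusted p = 0.000294). HSPA14, a ribosome-associated relative, was called lower in A375 (log2 fold change -0.12 ± 0.05, adjusted p = 0.0470) and higher in SKMel28 (log2 fold change 0.45 ± 0.05, adjusted p = 9.13e-11).

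The HSP70 genes of the organelles split as well. HSPA5 (BiP), the HSP70 of the ER and the gene that carries the ER stress element shown above, was lower in both resistant lines. It was at 868, 865 and 847 CPM in resistant and 933, 976 and 995 CPM in sensitive SKMel28 libraries (log2 fold change -0.17 ± 0.03, adjusted p = 5.29e-06). In A375 it was at 648, 645 and 636 CPM in resistant and 782, 803 and 784 CPM in sensitive libraries (log2 fold change -0.30 ± 0.03, adjusted p = 6.22e-11). HSPA5 and HSP90B1, whose windows both hold that element, thus moved together in A375 and in opposite directions in SKMel28. HSPA9 (mortalin), the HSP70 of the mitochondrial matrix, was at 836, 828 and 832 CPM in resistant and 732, 782 and 749.7 CPM in sensitive SKMel28 libraries (log2 fold change 0.14 ± 0.03, adjusted p = 0.000108), and was not called in A375 (log2 fold change 0.04 ± 0.03, adjusted p = 0.371). In A375 it became called with DESeq2 (log2 fold change 0.07, adjusted p = 0.0234) and without A375 resistant library 3 (0.08, adjusted p = 0.0496), in a range of 0.0234 to 0.57 over its alternatives.

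HSP110 proteins are HSP70 relatives that act as nucleotide exchange factors for HSP70. HSPH1 (HSP105) moved in opposite directions. It was at 302, 306 and 305 CPM in resistant A375 libraries, against 433, 433 and 418 CPM in sensitive A375 libraries (log2 fold change -0.49 ± 0.03, adjusted p = 2.05e-17). In SKMel28 it was at 365, 357 and 363 CPM in resistant and 273, 274 and 277 CPM in sensitive libraries (log2 fold change 0.40 ± 0.03, adjusted p = 9.91e-15). Neither pair of groups overlapped, and the changes of the 2 lines differed by -0.89 ± 0.05 (adjusted p = 2.90e-21). HSPA4, a further HSP110, was called higher in SKMel28 only (log2 fold change 0.44 ± 0.03, adjusted p = 1.28e-16), with log2 fold change 0.05 ± 0.03, adjusted p = 0.154 in A375 and a called difference of -0.39 ± 0.04 (adjusted p = 2.77e-10). HSPA12A, a distant relative, was higher in both lines, with 30.6, 29.7 and 29.1 CPM in resistant and 16.1, 18.4 and 13.2 CPM in sensitive SKMel28 libraries (log2 fold change 0.91 ± 0.09, adjusted p = 1.98e-11) and log2 fold change 0.54 ± 0.12, adjusted p = 0.000342 in A375.

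The mitochondrial chaperonin consists of HSPD1 (HSP60), which forms the barrel, and HSPE1 (HSP10), its lid, whose genes lie head to head on chromosome 2. HSPD1 rose 1.61-fold in resistant SKMel28 cells while HSPE1 was not called. HSPD1 was at 2013, 1995 and 2019.8 CPM in resistant and 1235, 1263 and 1238 CPM in sensitive SKMel28 libraries (log2 fold change 0.69 ± 0.03, adjusted p = 3.02e-24). HSPE1 was at 333, 318 and 363 CPM in resistant and 322, 336 and 306 CPM in sensitive SKMel28 libraries, which overlapped (log2 fold change 0.07 ± 0.04, adjusted p = 0.105). This gene became called in 3 of 18 alternatives, without the filter on low counts (adjusted p = 0.0233), without SKMel28 resistant library 2 (0.0196) and without SKMel28 sensitive library 2 (0.024), in a range of 0.0196 to 0.633. The ratio of HSPD1 to HSPE1 reads was 5.96 ± 0.361 in resistant and 3.88 ± 0.15 in sensitive SKMel28 cells, and 4.20 ± 0.154 in resistant and 4.36 ± 0.0683 in sensitive A375 cells (mean ± SD, n = 3 each).

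In A375, HSPD1 was at 819.8, 825 and 818 CPM in resistant and 888, 899.7 and 881 CPM in sensitive libraries (log2 fold change -0.12 ± 0.03, adjusted p = 0.000910), and HSPE1 had log2 fold change -0.06 ± 0.04, adjusted p = 0.216. Counting took no account of strand, as the deposited names say, so reads of the shared start region of this pair cannot be assigned with certainty, and both genes have many processed pseudogenes. The read-through gene HSPE1-MOB4, which overlaps HSPE1, held at most 15 reads in a library.

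Small heat shock proteins showed the largest single change. CRYAB (αB-crystallin), which binds unfolded chains in muscle and lens and desmin filaments in muscle, was nearly silent in all groups but resistant SKMel28 cells. It had 5560, 5347 and 6147 reads in the resistant SKMel28 libraries, or 171, 169 and 179 CPM, against 14, 7 and 6 reads, or 0.467, 0.235 and 0.195 CPM, in the sensitive ones (log2 fold change 9.16 ± 0.12, adjusted p = 3.51e-42). The approximate SE is too small for a change of this size, because the sensitive SKMel28 group held only 27 reads. In A375 no resistant library had a read and the sensitive libraries had 2, 4 and 0 reads. The A375 call therefore rests on 6 reads, with overlapping libraries. With a floor of 3 reads set for the resistant group, and the 6 reads taken as exact, the computed lower limit of the fall in resistant cells was 2.00-fold. The call was lost without A375 resistant library 1 (adjusted p = 0.0518) and without A375 sensitive library 2 (0.128), in a range of 0.00754 to 0.128 over its alternatives. HSPB2, the head-to-head neighbour of CRYAB on chromosome 11 (chr11:111912242-111914093, within the extent chr11:111908565-111923722 annotated for CRYAB), had 8, 7 and 12 reads in resistant SKMel28 libraries and none in the other 9 libraries. By the same floor, set for sensitive SKMel28 cells, the computed lower limit of the HSPB2 rise in resistant SKMel28 cells was 8.26-fold, with its own reads taken as exact. Because strand was not used, these few reads cannot be told apart from CRYAB reads.

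HSPB8, a partner of BAG3 in selective autophagy, and HSPB1 (HSP27), an abundant actin-associated member, moved apart in SKMel28. HSPB8 was at 74.1, 76.5 and 77.1 CPM in resistant and 41.7, 37.8 and 39.8 CPM in sensitive SKMel28 libraries (log2 fold change 0.93 ± 0.06, adjusted p = 6.09e-18). HSPB1 was at 43.6, 55.6 and 52.9 CPM in resistant and 81.7, 89.9 and 98.7 CPM in sensitive SKMel28 libraries (log2 fold change -0.83 ± 0.08, adjusted p = 3.15e-07). Neither pair overlapped. In A375, where HSPB1 is the main small heat shock gene, it was at 158, 162 and 148 CPM in resistant and 179, 170.4 and 178 CPM in sensitive libraries, without overlap but not called (log2 fold change -0.18 ± 0.07, adjusted p = 0.0614).

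The adjusted p of HSPB1 in A375 ran from 5.26e-06 to 0.312 and passed the threshold in 7 of 18 alternatives. Among these were the fit of the 6 A375 libraries alone (5.26e-06) and the fits without SKMel28 resistant library 1 (0.00114) or 2 (0.0218) or SKMel28 sensitive library 1 (0.0149) or 3 (0.0122). HSPB8 in A375 had log2 fold change 0.12 ± 0.07, adjusted p = 0.167, and was called only without A375 resistant library 2 (adjusted p = 0.025, from 0.025 to 0.515 over its alternatives). HSPB11, which carries the family name but is a subunit of the intraflagellar transport complex of cilia, was at 18.6, 18.3 and 20.2 CPM in resistant and 28.7, 28.4 and 30.1 CPM in sensitive A375 libraries (log2 fold change -0.61 ± 0.07, adjusted p = 1.73e-10), and was called higher in SKMel28 (log2 fold change 0.30 ± 0.06, adjusted p = 6.80e-05).

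Of the cytosolic J proteins that serve HSP70 broadly, DNAJA1 and DNAJB1 (HSP40) changed little. DNAJA1 was at 303, 299 and 297 CPM in resistant and 268, 279.5 and 284 CPM in sensitive SKMel28 libraries (log2 fold change 0.11 ± 0.03, adjusted p = 0.00242), and had log2 fold change 0.12 ± 0.03, adjusted p = 0.00250 in A375. DNAJB1 was at 298, 304 and 299 CPM in resistant and 273, 275 and 289 CPM in sensitive SKMel28 libraries (log2 fold change 0.11 ± 0.03, adjusted p = 0.00523). In A375 it was at 248, 241 and 245 CPM in resistant and 226, 235 and 238 CPM in sensitive libraries, not called (log2 fold change 0.07 ± 0.03, adjusted p = 0.0699). It became called in 8 of 18 alternatives, with adjusted p from 0.00233 to 0.321, among them DESeq2 (0.00233) and the fits without A375 resistant library 1 (0.0366), 2 (0.0116) or 3 (0.0167).

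DNAJB4 (HLJ1), a relative of DNAJB1, had the largest change of the DNAJA and DNAJB genes in SKMel28. It was at 98.1, 93.0 and 93.5 CPM in resistant and 27.1, 29.3 and 29.03 CPM in sensitive SKMel28 libraries, a 3.33-fold rise (log2 fold change 1.74 ± 0.06, adjusted p = 6.79e-28). In A375 it was at 7.77, 8.21 and 7.20 CPM in resistant and 11.9, 10.3 and 11.3 CPM in sensitive libraries (log2 fold change -0.53 ± 0.08, adjusted p = 3.55e-07). No libraries of the compared groups overlapped, and the changes of the 2 lines differed by -2.27 ± 0.10 (adjusted p = 1.83e-23). Across the DNAJB genes that act outside the ER lumen, 5 of 8 tested were called higher and none lower in SKMel28 (62.5% called, against 70.0% of all genes tested), with DNAJB2, a J protein with ubiquitin-binding motifs, at 128, 125 and 137 CPM in resistant and 83.0, 81.3 and 84.7 CPM in sensitive libraries (log2 fold change 0.65 ± 0.05, adjusted p = 3.66e-16). In A375, 2 of them were called higher (DNAJB5 and DNAJB12) and 1 lower (DNAJB4), a share of 37.5% against 51.3% of all genes tested.

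J proteins with their J domain in the ER lumen bring clients to HSPA5. The ER-lumen group counted here was DNAJB9, DNAJB11, DNAJC1, DNAJC3 and DNAJC10. In SKMel28, 4 of these 5 were called higher and none lower, while 34.2% of all genes tested were called higher and 35.8% lower. DNAJC1, a membrane-spanning member, was at 39.3, 45.3 and 43.3 CPM in resistant and 19.3, 19.6 and 17.7 CPM in sensitive SKMel28 libraries (log2 fold change 1.18 ± 0.07, adjusted p = 9.12e-19), and had log2 fold change -0.03 ± 0.08, adjusted p = 0.764 in A375. DNAJC10 (ERdj5), which reduces disulphide bonds in degradation, was higher in both lines, with log2 fold change 0.42 ± 0.04, adjusted p = 1.84e-12 in SKMel28 and log2 fold change 0.19 ± 0.04, adjusted p = 0.000532 in A375. DNAJB11 (ERdj3), an abundant co-chaperone, had log2 fold change 0.41 ± 0.04, adjusted p = 1.98e-12 in SKMel28 and log2 fold change -0.05 ± 0.04, adjusted p = 0.361 in A375. DNAJC3 (p58IPK), an ER protein that also restrains the kinase PERK, was at 51.8, 51.3 and 53.5 CPM in resistant and 66.9, 65.9 and 63.1 CPM in sensitive A375 libraries (log2 fold change -0.32 ± 0.04, adjusted p = 5.03e-08), and was called higher in SKMel28 (log2 fold change 0.20 ± 0.04, adjusted p = 6.43e-05).

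DNAJB9 (ERdj4), a known target of the unfolded protein response, went the other way. It was at 13.9, 15.1 and 15.7 CPM in resistant and 9.65, 8.995 and 11.6 CPM in sensitive A375 libraries, without overlap (log2 fold change 0.57 ± 0.09, adjusted p = 2.73e-07). In SKMel28 it was at 33.8, 33.3 and 30.7 CPM in resistant and 35.5, 37.2 and 35.1 CPM in sensitive libraries and was not called (log2 fold change -0.14 ± 0.07, adjusted p = 0.0778). With library size alone (adjusted p = 0.0304) or only the SKMel28 libraries (0.0475) it was called lower there, in a range of 0.0304 to 0.31. Its difference between lines was 0.71 ± 0.11 (adjusted p = 4.02e-07), the only positive one among the 5 genes of the ER-lumen group.

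Several DNAJC genes act in mitochondria. DNAJC15 (MCJ), an inner membrane protein related to the J protein of the import motor, was at 36.9, 39.3 and 37.3 CPM in resistant and 5.54, 6.35 and 7.04 CPM in sensitive SKMel28 libraries, a 5.99-fold rise (log2 fold change 2.58 ± 0.09, adjusted p = 2.55e-27). In A375 it was at 16.5, 15.8 and 13.8 CPM in resistant and 16.5, 18.1 and 19.1 CPM in sensitive libraries, which overlapped (log2 fold change -0.21 ± 0.08, adjusted p = 0.0316). That call was lost in 8 of 18 alternatives (adjusted p from 0.014 to 0.345), among them DESeq2 (0.0879) and the fits without A375 resistant library 2 (0.086) or 3 (0.345) or A375 sensitive library 2 (0.0762) or 3 (0.149). DNAJC19, the J protein of the import motor itself, was called higher in both lines, with log2 fold change 0.32 ± 0.06, adjusted p = 1.56e-05 in SKMel28 and log2 fold change 0.16 ± 0.07, adjusted p = 0.0388 in A375.

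DNAJC11, an outer membrane protein associated with the cristae-organizing complex, had the largest called fall in A375 apart from CRYAB. It was at 48.6, 46.0 and 43.4 CPM in resistant and 77.2, 77.6 and 80.8 CPM in sensitive A375 libraries (log2 fold change -0.77 ± 0.05, adjusted p = 1.55e-18), and had log2 fold change 0.12 ± 0.04, adjusted p = 0.0150 in SKMel28, a call lost with library size alone (adjusted p = 0.085, from 0.00628 to 0.085 over its alternatives). DNAJC30, an inner membrane protein linked to complex I, was the largest riser called in A375. It was at 23.9, 24.4 and 23.6 CPM in resistant and 15.2, 16.1 and 14.8 CPM in sensitive A375 libraries (log2 fold change 0.64 ± 0.09, adjusted p = 4.14e-08), and was also called higher in SKMel28 (log2 fold change 0.41 ± 0.10, adjusted p = 0.000290). Its difference between lines was 0.23 ± 0.13 (adjusted p = 0.119) and became called without SKMel28 sensitive library 2 (adjusted p = 0.00713) or with library size alone (0.0459), in a range of 0.00713 to 0.402.

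Among DNAJC genes with other roles, DNAJC12, a co-chaperone of the aromatic amino acid hydroxylases, was at 6.88, 5.67 and 6.88 CPM in resistant and 2.10, 1.41 and 0.749 CPM in sensitive SKMel28 libraries (log2 fold change 2.19 ± 0.21, adjusted p = 1.08e-12). It was also called higher in A375 (log2 fold change 0.52 ± 0.19, adjusted p = 0.0215), a call lost without A375 resistant library 2 (adjusted p = 0.0859) or A375 sensitive library 1 (0.0516) or 3 (0.0622), in a range of 0.00646 to 0.0859. DNAJC6 (auxilin), which helps HSP70 strip clathrin from vesicles, was lower in both lines. It was at 4.02, 3.47 and 4.08 CPM in resistant and 6.90, 7.02 and 7.23 CPM in sensitive SKMel28 libraries (log2 fold change -0.87 ± 0.11, adjusted p = 3.66e-09), and at 19.1, 18.0 and 19.9 CPM in resistant and 27.5, 28.3 and 27.4 CPM in sensitive A375 libraries (log2 fold change -0.55 ± 0.08, adjusted p = 9.54e-08). DNAJC18 was at 20.6, 20.4 and 20.8 CPM in resistant and 10.54, 9.98 and 11.8 CPM in sensitive SKMel28 libraries (log2 fold change 0.94 ± 0.09, adjusted p = 4.19e-13).

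DNAJC22 was one of the 2 genes called higher in A375 and lower in SKMel28. It was at 30.9, 29.1 and 30.9 CPM in resistant and 23.9, 23.3 and 22.01 CPM in sensitive A375 libraries (log2 fold change 0.39 ± 0.07, adjusted p = 4.90e-06), and at 18.5, 20.2 and 19.3 CPM in resistant and 33.7, 28.6 and 30.1 CPM in sensitive SKMel28 libraries (log2 fold change -0.67 ± 0.07, adjusted p = 2.27e-11). The other, DNAJC24, which acts in the diphthamide modification of elongation factor 2, had log2 fold change 0.25 ± 0.09, adjusted p = 0.0126 in A375 and log2 fold change -0.28 ± 0.11, adjusted p = 0.0195 in SKMel28. DNAJC17, a J protein with an RNA recognition motif, had log2 fold change -0.28 ± 0.10, adjusted p = 0.0180 in A375 and log2 fold change 0.64 ± 0.11, adjusted p = 3.49e-06 in SKMel28. Its A375 call was lost without A375 resistant library 1 (adjusted p = 0.0609), 2 (0.0913) or 3 (0.0602) or A375 sensitive library 3 (0.0584), in a range of 0.00743 to 0.0913. 

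DNAJC8, a splicing-associated protein, was at 83.6, 82.5 and 77.9 CPM in resistant and 107, 105 and 108 CPM in sensitive A375 libraries (log2 fold change -0.39 ± 0.04, adjusted p = 3.22e-11), and was called higher in SKMel28 (log2 fold change 0.13 ± 0.04, adjusted p = 0.00331). DNAJC2, a partner of HSPA14 on the ribosome, had log2 fold change -0.11 ± 0.05, adjusted p = 0.0390 in A375 and log2 fold change 0.08 ± 0.04, adjusted p = 0.129 in SKMel28. DNAJC21, which acts in ribosome maturation, had log2 fold change 0.26 ± 0.05, adjusted p = 5.39e-05 in SKMel28 and log2 fold change 0.05 ± 0.05, adjusted p = 0.474 in A375. DNAJC9, a histone chaperone of replicating cells, was called higher in A375 (log2 fold change 0.17 ± 0.05, adjusted p = 0.00176) and not in SKMel28 (log2 fold change 0.03 ± 0.04, adjusted p = 0.608). 

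Of the J proteins of vesicles and the cytosol, DNAJC13 (RME-8), which sorts cargo on endosomes, was at 226, 209 and 195 CPM in resistant and 137, 144 and 129 CPM in sensitive SKMel28 libraries (log2 fold change 0.62 ± 0.05, adjusted p = 5.80e-14), and had log2 fold change 0.00 ± 0.05, adjusted p = 1.00 in A375. DNAJC5, the cysteine string protein of secretory vesicles, was called lower in both lines, with log2 fold change -0.23 ± 0.04, adjusted p = 2.89e-06 in SKMel28 and log2 fold change -0.14 ± 0.04, adjusted p = 0.00550 in A375. DNAJC7, a J protein that binds both HSP70 and HSP90, had log2 fold change 0.45 ± 0.04, adjusted p = 6.38e-14 in SKMel28 and log2 fold change -0.09 ± 0.04, adjusted p = 0.0450 in A375. Over the 23 tested DNAJC genes not placed in the ER-lumen group, 13 were called higher and 4 lower in SKMel28 (73.9% called, against 70.0% of all genes tested), and 6 higher and 8 lower in A375 (60.9%, against 51.3%).

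Of the 10 genes called in neither line, DNAJB6, a suppressor of polyglutamine aggregation, had log2 fold changes of -0.05 ± 0.04 in A375 and 0.02 ± 0.04 in SKMel28. DNAJC14 had -0.02 ± 0.04 in A375 and 0.02 ± 0.05 in SKMel28, and HSPA13 (STCH), an HSP70 relative of the ER, had 0.00 ± 0.05 in A375 and -0.06 ± 0.05 in SKMel28. The low-count genes HSPB6, DNAJB7, DNAJC28 and HSPA12B had SEs of 0.35 to 0.81, so that at their depth a change of that size was not detectable. The changes of HSPA12B in the 2 lines still differed, by 1.71 ± 0.67 (adjusted p = 0.0234). HSPE1, DNAJC4 and DNAJC25 were the others.

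The 11 chaperone genes that were not tested had few or no reads. No read fell on CRYAA, DNAJB8, DNAJC5G or HSPB2-C11orf52 in any library. HSPB7, a heart and muscle member, had 5, 1 and 9 reads in resistant SKMel28 libraries and none in sensitive SKMel28 or in A375 libraries. By the same floor of 3 reads, the computed lower limit of its rise in resistant SKMel28 cells was 4.59-fold, with its own reads taken as exact. HSPB2, HSPB3, HSPB9, DNAJB13, DNAJC5B and DNAJC25-GNG10 were the others, each at most 0.350 CPM in any library.

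Chaperone genes also set the lines themselves apart. In sensitive A375 against sensitive SKMel28 cells, 60 of 65 were called, 23 higher and 37 lower in A375, while 82.9% of all genes were called (42.4% higher, 40.5% lower). The J proteins of the ER-lumen group and their HSP70 were lower in A375. All 5 were called lower, though the call of DNAJC1 (-0.20) was lost with library size alone (adjusted p = 0.505) and without A375 sensitive library 2 (0.0662) or SKMel28 sensitive library 2 (0.0529), in a range of 0.00544 to 0.505. DNAJC10 was at 63.2, 59.8 and 61.2 CPM in sensitive A375 and 209, 206 and 201 CPM in sensitive SKMel28 libraries (log2 fold change -1.74 ± 0.04). HSPA2 was at 4.06, 4.79 and 5.45 CPM in sensitive A375 and 102, 105 and 107 CPM in sensitive SKMel28 libraries (log2 fold change -4.47 ± 0.07). DNAJA4 was at 0.0504, 0.0915 and 0.0333 CPM in sensitive A375 and 5.77, 4.97 and 5.60 CPM in sensitive SKMel28 libraries. Higher in A375 were HSPB1 (log2 fold change 0.96 ± 0.08), DNAJC6 (1.98 ± 0.09), DNAJC15 (1.5 ± 0.10) and HSPH1 (0.64 ± 0.03). With library size alone as the scaling, the median log2 fold change of all genes in this comparison was 0.18, against 0.03 with TMM, and 23 chaperone genes were called higher and 33 lower.

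Some chaperone genes lay among neighbours that moved too. For each chaperone gene with 1 known position, 64 in all, the median log2 fold change of the 100 nearest tested genes at 2 CPM or more on its chromosome was taken, a choice made after the data had been seen. In A375, 10 chaperone genes lay where this median was below -0.25 (from -0.59 to -0.37), namely DNAJC6, DNAJC8, DNAJC11, DNAJC16 and HSPB11 on chromosome 1, DNAJC3, DNAJC15 and HSPH1 on chromosome 13, and DNAJC5 and HSPA12B on chromosome 20. Of these, 8 were called lower and none higher, whereas 14 of the other 54 were called lower and 13 higher. Over all genes tested, 26.3% were called lower and 25.0% higher. The limit picks regions where most neighbours were lower, and the share called among all genes of such regions was not taken. HSPH1, at -0.49, lay beside neighbours with a median of -0.48, and HSPB11, at -0.61, beside a median of -0.54. DNAJC11 was at -0.77 with neighbours at -0.55, and DNAJC15 at -0.21 with neighbours at -0.44. By contrast, HSP90B1 (-0.26), HSPA5 (-0.30) and DNAJC30 (0.64) in A375 had neighbours at 0.08, 0.05 and 0.08.

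In SKMel28, 12 chaperone genes lay where the median of the neighbours was above 0.25, of which 9 were called higher and 2 lower. Over all genes tested, 34.2% were called higher and 35.8% lower, and the share called among all genes of such regions was not taken. HSPD1, at 0.69, had neighbours at 0.38, HSPE1, at 0.07, neighbours at 0.39, and DNAJC1, at 1.18, neighbours at 0.50. HSPA5, at -0.17, had neighbours at -0.55, while HSPA2 (-0.71) and DNAJC6 (-0.87) were lower among neighbours at 0.29 each. The 46 chaperone genes with a neighbour median from -0.25 to 0.25 included 29 called higher and 6 called lower, beside 34.2% and 35.8% of all genes tested. HSP90B1 (0.55), DNAJC15 (2.58) and HSPB8 (0.93) had neighbours at 0.07, 0.07 and -0.05, and CRYAB (9.16) had neighbours at -0.13. Whether the shift of the neighbours has a part in these values was not tested.

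**Figure D4:**
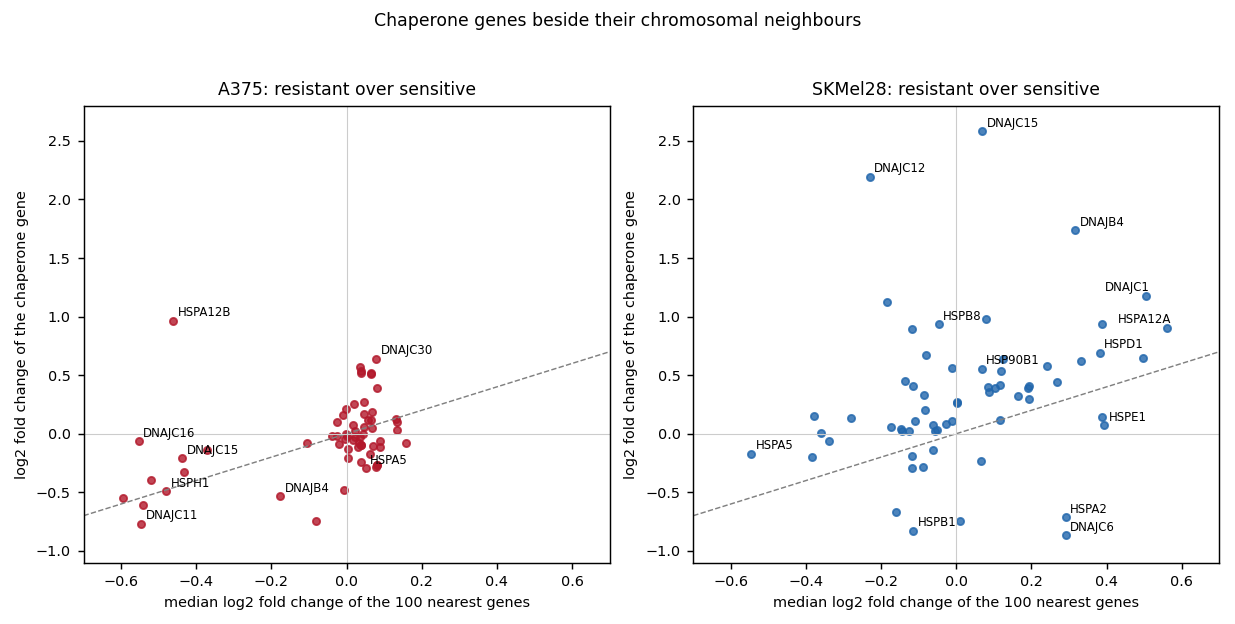
Fitted log2 fold change of each chaperone gene, resistant over sensitive (vertical axis), against the median log2 fold change of its 100 nearest tested genes (horizontal axis) in A375 (left) and SKMel28 (right); the dashed line marks equality and CRYAB is left out of both panels because it lies beyond the axis. In A375 a group of 10 genes sits at neighbour medians from -0.59 to -0.37, whereas in SKMel28 DNAJC15 and DNAJC12 rise far above neighbours at 0.07 and -0.23.

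The regulators and partners of the chaperones, taken from lists outside the families, were called in both directions in SKMel28 in each list. Among heat shock factors and their binding protein, HSF1, the main activator of the heat shock response, was at 125 ± 5.97 CPM in resistant and 114 ± 4.32 CPM in sensitive SKMel28 cells (log2 fold change 0.13 ± 0.04, adjusted p = 0.00615). HSF2 was at 27.0 ± 1.66 CPM in resistant and 14.8 ± 0.30 CPM in sensitive SKMel28 cells (log2 fold change 0.87 ± 0.08, adjusted p = 3.14e-13). HSBP1, a small protein that binds HSF1, was called lower in both lines. In all, 2 of the 5 tested were called higher and 1 lower in SKMel28, and none higher and 1 lower in A375, while 70.0% of all genes tested were called in SKMel28 and 51.3% in A375.

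Of the 13 exchange factors and partners of HSP70, 8 were called higher and 3 lower in SKMel28 (84.6% called, against 70.0% of all genes tested), and 6 higher and 2 lower in A375 (61.5%, against 51.3%). BAG3, which hands HSP70 clients to autophagy, was higher in both lines, with 205 ± 4.58 CPM in resistant and 154 ± 3.12 CPM in sensitive A375 cells (log2 fold change 0.41 ± 0.04) and 0.37 ± 0.04 in SKMel28. BAG1 (0.35 in A375, -0.84 in SKMel28) and GRPEL1, the exchange factor of mitochondrial HSPA9 (0.20 in A375, -0.83 in SKMel28), were called in opposite directions. HYOU1, the exchange factor of HSPA5 in the ER, had a log2 fold change of -0.32 ± 0.03 in A375 and was not called in SKMel28 (-0.01).

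Of the 16 HSP90 co-chaperones and related genes, 3 were called higher and 8 lower in SKMel28, and 7 higher and 4 lower in A375. The share called was 68.8% in each line, near the 70.0% of all genes tested in SKMel28 and above the 51.3% in A375. UNC45A, a myosin chaperone, had a log2 fold change of -0.70 ± 0.04 in SKMel28 and FKBP8 one of -0.61 ± 0.04, against 0.31 ± 0.04 for FKBP8 in A375. AHSA1, which stimulates the ATPase of HSP90, had 0.29 ± 0.04 in A375 and -0.08 ± 0.04 in SKMel28. NUDC was called lower in both lines, at -0.40 in A375 and -0.39 in SKMel28.

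All 8 subunits of CCT, the chaperonin of the cytosol that folds actin and tubulin, were called lower in resistant SKMel28 cells, from -0.50 ± 0.03 for CCT8 to -0.08 ± 0.03 for CCT2 and CCT7. CCT8 averaged 279 ± 5.89 CPM in resistant and 394 ± 11 CPM in sensitive SKMel28 cells. Together with prefoldin, which passes chains to CCT, 4 of the 14 were called higher and 10 lower in SKMel28, where 70.0% of all genes tested were called (34.2% higher, 35.8% lower). In A375, 3 were called higher and 4 lower, a share near the 51.3% of all genes. The prefoldin subunit PFDN4 was at 0.66 in SKMel28 and -0.43 in A375.

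Of 21 tested genes of ER folding and the unfolded protein response, 6 were called higher and 13 lower in SKMel28 (90.5% called, against 70.0% of all genes tested), and 5 higher and 8 lower in A375 (61.9%, against 51.3%). CANX (calnexin), which holds glycoproteins for folding, was higher in resistant SKMel28 cells (2149 ± 84.7 CPM in resistant and 1316 ± 17.5 CPM in sensitive cells, log2 fold change 0.71 ± 0.03), as were PDIA3, the disulphide isomerase that works with it (818 ± 20.1 CPM in resistant and 532 ± 15.3 CPM in sensitive cells, log2 fold change 0.62 ± 0.03), and the collagen chaperone SERPINH1 (156 ± 4.04 CPM in resistant and 91.8 ± 1.92 CPM in sensitive cells, log2 fold change 0.76 ± 0.04). Lower in the same cells were P4HB, a disulphide isomerase (1046 ± 21.2 CPM in resistant and 1555 ± 29.9 CPM in sensitive cells, log2 fold change -0.57 ± 0.03), UGGT1, the folding sensor for glycoproteins (log2 fold change -0.60 ± 0.04), and ERN1, the stress sensor IRE1 (-1.24 ± 0.18). In A375, SERPINH1 (-0.57 ± 0.04), PDIA4 (-0.48 ± 0.03) and P4HB (-0.27 ± 0.03) were called lower. Of 12 genes of mitochondrial protein quality control, 7 were called higher and 3 lower in SKMel28 (83.3% called, against 70.0% of all genes tested), led by the inner membrane proteases AFG3L2 (0.64 ± 0.04) and YME1L1 (0.61 ± 0.03), with the matrix protease subunit CLPP at -0.61 ± 0.05, and 4 were called higher and 2 lower in A375, near the 51.3% of all genes.

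**Figure D5:**
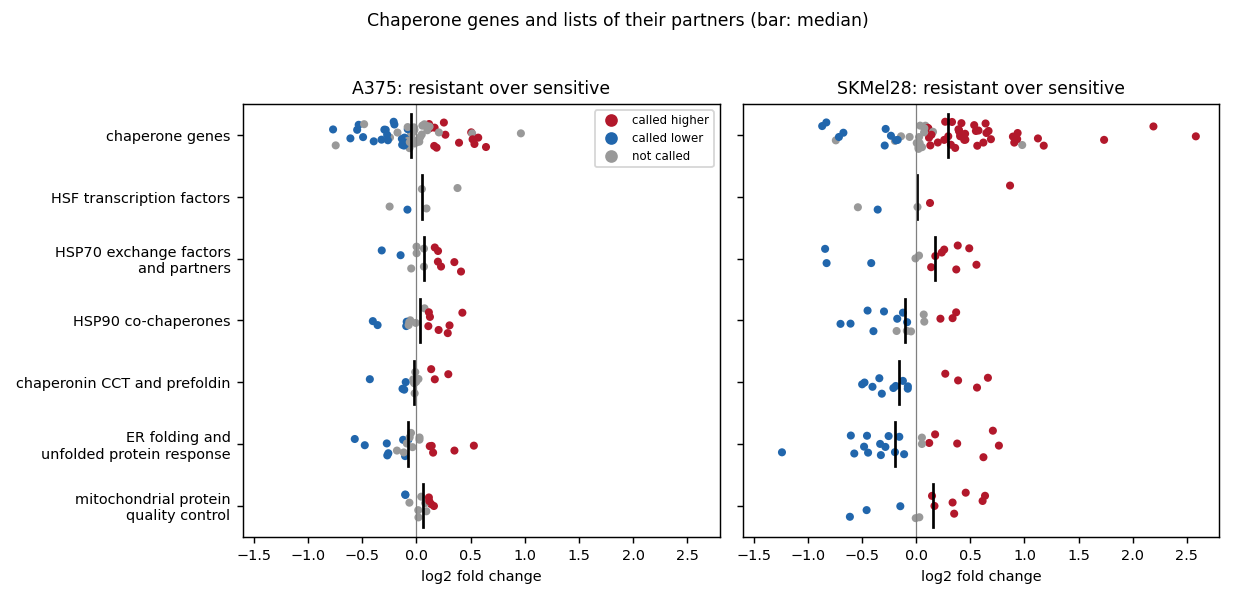
Fitted log2 fold change, resistant over sensitive, of the chaperone genes and of 6 lists of their regulators and partners (rows) in A375 (left) and SKMel28 (right); each point is a gene, red where called higher, blue where called lower and grey where not called, the black bar is the median of the list, and CRYAB is left out of the points because it lies beyond the axis. In SKMel28 the chaperone genes have a median of 0.30, whereas the bars of the HSP90 co-chaperones, of CCT with prefoldin and of the ER list lie below 0.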

How the data were processed

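RNA of 12 libraries was sequenced after poly(A) enrichment, per the labels' protocols. The authors deposited 1 table per library with raw read counts per gene symbol for 26499 genes, closed by the summary lines htseq-count writes. HISAT2, StringTie and the build GRCh38.p12 are named in the submitters' processing notes, whereas the deposited names point to STAR, untrimmed reads and counting without strand, so the aligner is not settled. Reads that met no gene (11.7% to 13.5% of each table) stayed out of library sizes and tests.

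Groups follow the labels for line and resistance. The members, the lists of partners and the markers were chosen with earlier results of these data known. Counts were filtered with filterByExpr (15506 genes left). TMM scaling was applied, and a single fit held 4 group means, 8 residual degrees of freedom and two-sided robust quasi-likelihood tests with Benjamini-Hochberg adjustment (edgeR 4.0.16, R 4.3.3). The contrasts were resistant minus sensitive in each line, the A375 change minus the SKMel28 change, and sensitive A375 minus sensitive SKMel28. The first 3 use the same libraries and are not independent of one another. The tests across genes were tested on simulated data. Of 50 genes changed 1.25-fold there, edgeR recovered 36 in A375 and 20 for the difference between lines. At 1.5-fold it recovered 44 and 35 of 50, so changes of such sizes can be missed. False calls were 8 in A375 and 11 for the difference, over 15167 genes tested. DESeq2 1.42.0, other scalings, no filter, fewer libraries and a replicate block were alternatives. Floors of 3 reads were set for a group without reads, and the reads of the other group were taken as exact. Such floors describe counting error alone, because without molecular identifiers several reads may come from 1 molecule. Between libraries of a group, chi-square per degree of freedom was 2.77 to 7.14, above sampling noise in each pair, and the biological coefficient of variation was 4.20%.

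Genes named with values are 19 core members, the called members of at least 1.5-fold and 5 CPM with up to 8 per line and direction, and up to 8 genes called in opposite directions in both lines. For partner lists, up to 3 called genes of smallest adjusted p per line were named. DNAJA2, DNAJA4, DNAJB2, DNAJB6, DNAJB11, DNAJC2, DNAJC5, DNAJC7 to DNAJC10, DNAJC13, DNAJC14, DNAJC19, DNAJC21, DNAJC24, HSPA4, HSPA6, HSPA13, HSPA14, HSPB7, AHSA1, HSF1, HSBP1, HYOU1, UGGT1 and any other gene outside this rule were chosen after their values were seen. Transcript lengths and positions came from GENCODE 29 (GRCh38), in which 23850 symbols matched directly and 681 through another symbol. The 100 nearest genes replaced the chromosome arms planned at first. Promoter windows came from RefSeq (GRCh38.p14) and matched 66 of the 76 genes.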

Additional observations from a re-analysis of the deposited data

Results flagged for a closer look

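For 26 of the 31 named chaperone genes followed through the alternatives, the change of resistant against sensitive cells differed between the lines by the test of the difference itself (edgeR quasi-likelihood, adjusted p below 0.05 over all genes tested). The same test called 45 of the 65 chaperone genes and 63.8% of all genes tested. Some of the named genes were picked for large or opposite changes, which raises the count among them. Values are log2 differences, the A375 change minus the SKMel28 change. The most negative was CRYAB at -13.19, whose size depends on the fit because resistant A375 cells had no read. DNAJC15 was at -2.79, DNAJB4 at -2.27, DNAJC12 at -1.67 and DNAJC1 at -1.21. Each of these was called higher in SKMel28, while in A375 DNAJC15 and DNAJB4 were called lower, DNAJC12 higher by less, and DNAJC1 was not called.

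Genes that went in opposite directions included DNAJC17 at -0.92, HSPB11 at -0.91, HSPH1 at -0.89, DNAJC11 at -0.89, HSP90B1 at -0.82, HSPD1 at -0.81, DNAJC3 at -0.52, HSP90AA1 at -0.47 and HSP90AB1 at -0.36, each called lower in A375 and higher in SKMel28. DNAJC18 at -0.84 and HSPB8 at -0.81 were called higher in SKMel28 alone, HSPB1 at 0.65 lower in SKMel28 alone, and DNAJB9 at 0.71 higher in A375 alone.

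DNAJC22 was at 1.07, being higher in resistant A375 and lower in resistant SKMel28 cells. HSPA2 at 0.44 and DNAJC6 at 0.32 were lower in both lines, by more in SKMel28. Small differences were called for HSPA12A at -0.37, HSPE1 at -0.13, HSPA5 at -0.13, HSPA8 at -0.11 and HSPA9 at -0.11. The call was lost in 10 of 17 alternatives for HSPA12A, 9 for HSPA8, 9 for HSPA9, 8 for HSPE1, 8 for DNAJC6 and 4 for HSPA5. No call was lost for the other 20 in the alternatives run.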

How the results depend on the processing

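The total of called chaperone genes in each comparison stayed within 1.5 times its value in every alternative run, but the 23 called lower in A375 did not: they were 15 with DESeq2 size factors and with library size alone, 14 with DESeq2, 15 without A375 resistant library 1 or A375 sensitive library 2, and 13 without A375 resistant library 2 or 3. Over the other scalings, no filter, DESeq2 and fewer libraries, calls ran from 30 to 37 in A375, 50 to 53 in SKMel28, 40 to 43 for the difference and 56 to 61 between the sensitive lines. Leaving out 1 library at a time gave 27 to 37, 48 to 50, 38 to 44 and 58 to 60 calls for the same comparisons. The fit with the replicate number as a block gave 37, 49 and 45 calls for A375, SKMel28 and the difference. Same-numbered residuals correlated at -0.00240 to 0.0471, and other pairs within a line at -0.0422 to 0.0161. The labels do not say what the numbers stand for, so a pairing is not settled. The block was not run between the lines. Of 2168 alternative values for 31 named genes, 2017 kept sign and call, 109 lost a call, 25 gained one and 17 changed sign.

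Sign changes concerned small values. With library size alone, HSPA8 in SKMel28 was at -0.0030, HSP90B1 between the sensitive lines at 0.0065, HSPB11 there at 0.069 and DNAJB1 in the difference at 0.032. DNAJC1 in A375 was at 0.0039 with DESeq2 size factors and 0.0037 with DESeq2. Leaving out 1 library at a time, the values ranged from -0.070 to 0.019 for DNAJC1 and from -0.082 to 0.0023 for HSPE1 in A375, from -0.0056 to 0.068 for HSPA8 in SKMel28, and from -0.023 to 0.040 for DNAJA1 and -0.067 to 0.0013 for DNAJB1 in the difference. The cause was not tested. Genes under 1 CPM are limited by depth.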
